A study of Mus musculus with 27 samples.

Results

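The tripartite motif (TRIM) genes of the mouse were followed through the response of bone marrow-derived macrophages to lipopolysaccharide (LPS) and to interleukin-4 (IL-4). The genes were chosen by symbol and level, as the protein-coding rows of the deposited gene table whose symbol is Trim followed by a digit, with a value of at least 10 in at least 3 of the 27 samples. Of 68 such TRIM genes in the table, 40 passed, among 13901 of 45070 genes that passed in all. The 28 that did not pass reached at most 10 in any sample, and they included Trim10, Trim29, Trim31, Trim38, Trim63 and Trim71. Among the 40, 35 had a value of at least 10 in all 3 untreated samples. Trim30b, Trim2, Trim45, Trim15 and Trim43c did not. Trim30b and Trim15 reached 10 only in LPS samples and Trim45 only in untreated and IL-4 samples, so these 3 had passed through the groups in which they were higher, and their LPS changes are given with no p although the counts hold them. Counts over the 40 genes are therefore descriptions.

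Macrophages were differentiated from the bone marrow of wild-type mice (male C57/BL6, 6 to 8 weeks old in the study's methods), and every culture was given the solvent DMSO for 1 h. Cells were then left untreated or were stimulated with LPS at 10 ng/ml or IL-4 at 10 ng/ml for 0.5, 1, 2 or 4 h, giving 9 groups of 3 replicates. The RNA bound to chromatin was sequenced, so that the values follow transcripts near the site of their synthesis more closely than mature mRNA does. The labels do not say whether replicates came from separate animals, so the p-values measure the spread between these samples. A lower value of a gene in such a bulk sample can come from fewer cells or from less RNA per cell, which cannot be told apart.

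TRIM proteins begin with a RING finger, 1 or more B-boxes and a coiled coil, and most are ubiquitin ligases. Their C-terminal domain, such as PRY-SPRY, NHL repeats or a PHD finger with a bromodomain, sets which partner is bound. Many TRIM ligases act in innate immunity, either by building or removing ubiquitin chains on RNA and DNA sensors and on Toll-like receptor adaptors or by binding viral particles in the cytosol, and a subset is known to be induced by type I interferon. LPS, which signals through TLR4, makes macrophages produce interferon-beta, whereas IL-4 signals through STAT6.

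The deposited values are read counts per gene that the authors scaled on invariant genes and rounded. Their totals ran from 2469768 to 2790981 over untreated and IL-4 samples and from 3571492 to 4058199 in the LPS samples, so a scaling to equal totals would lower every LPS value relative to untreated. The median log2 change of all tested genes after LPS was -0.24 (0.5 h), -0.30 (1 h), -0.29 (2 h) and -0.26 (4 h). Replicates 2 and 3 lay closer to each other (SD of the log2 ratio 0.138 to 0.287 over 620 well covered genes) than either lay to replicate 1 (0.37 to 0.496). All 10 macrophage markers examined passed the filter. Of 17 markers of other cells, 14 stayed at 6 or below in every sample and lay under the filter, and Col1a1 (8 to 95), Col1a2 (16 to 128) and Pecam1 (2 to 149) did not. The part of those cells in the results was not tested.

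The TRIM genes split into a group that rose and a group that fell after LPS. The F test over the 4 times (limma on log2 of the value plus 1) called 38 of the 40, against 87.6% of all tested genes. For 18 the largest change was a rise (32.9% of all genes) and for 20 a fall (54.7%). Trim45 and Trim59 were not called. With the replicate number as a block Trim59 passed (adjusted p = 8.26e-05). Trim45 had passed the filter through the groups in which it was higher, so no test of its LPS fall is given.

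The direction of the calls shifted with time. At 0.5 h, 3 TRIM genes were above untreated (19.6% of all genes) and 21 below (34.4%). By 1 h, 10 were above (24.8%) and 17 below (39%). By 2 h, 18 were above (26.9%) and 18 below (39%), and by 4 h, 18 were above (25.9%) and 14 below (37.6%). The median log2 change over the 40 genes was -0.79, -0.29, -0.34 and -0.17 at the successive times, beside the medians of all genes given above. Over the 35 genes at 10 or more in all untreated samples it was -0.81, -0.6, -0.5 and -0.27. Between 0.5 h and 4 h of LPS, 25 TRIM genes rose (32.3% of all genes) and 7 fell (30.8%).

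These splits moved with the scaling, and so did the level of all tested genes. Their median log2 change at LPS 0.5, 1, 2 and 4 h was 0, -0.05, -0.05 and -0.03 with median-of-ratios scaling. With equal totals it was -0.73, -0.86, -0.91 and -0.84. The shares of all genes called were not counted under either scaling, so the counts that follow are descriptions. With median-of-ratios scaling 4 were above and 18 below untreated at 0.5 h, 12 above and 15 below untreated at 1 h, 18 above and 12 below at 2 h, and 18 above and 9 below at 4 h. With equal totals 1 was above (Trim36) and 30 below at 0.5 h, 7 above and 25 below at 1 h, 15 above and 22 below at 2 h, and 17 above and 22 below at 4 h.

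**Figure D1:**
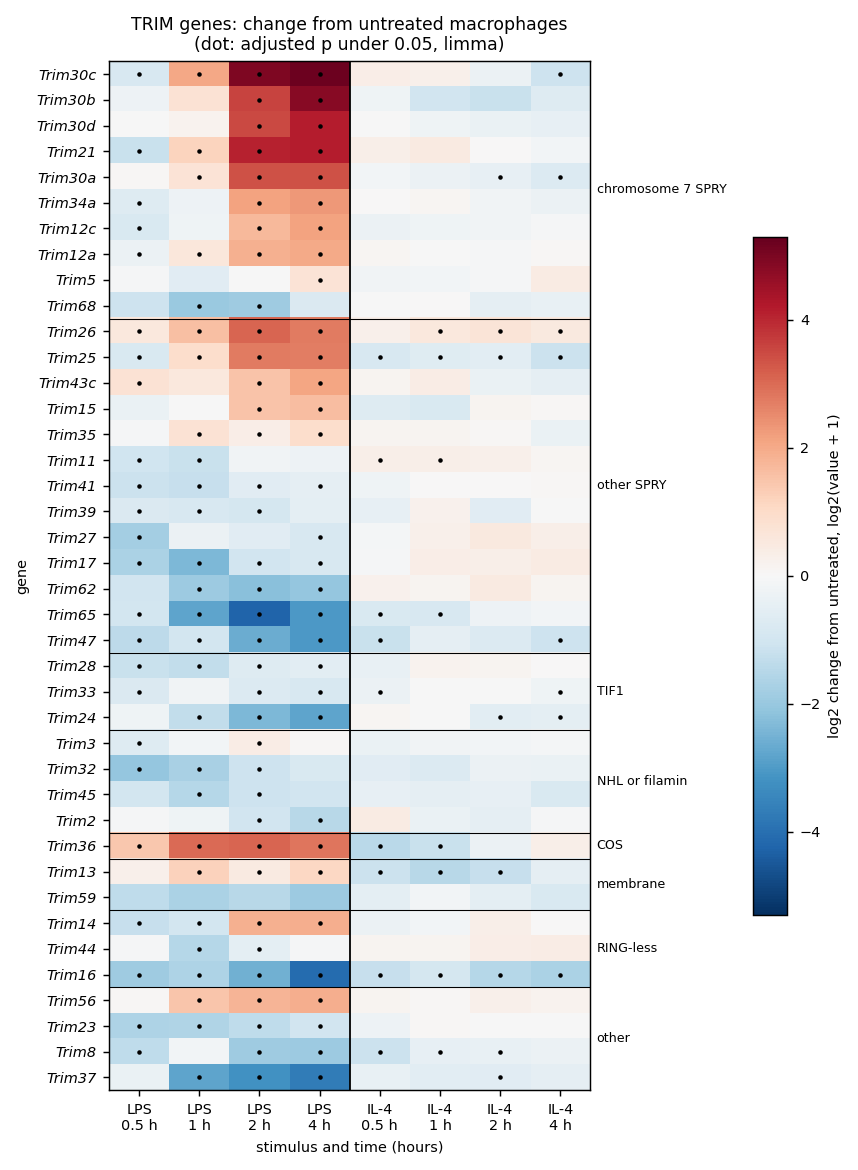
Log2 change from untreated (colour, on the log2 scale of the value plus 1) of the 40 TRIM genes (rows, by domain group) at each stimulus and time in hours (columns), where a dot marks an adjusted p under 0.05 in limma. The chromosome 7 genes are mostly red from 2 h of LPS, the TIF1 genes are blue, and the IL-4 columns are pale.

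The TRIM genes with a PRY-SPRY domain in and around the Trim5 and Trim30 cluster on chromosome 7 held the largest rises. Of the 10 tested, 9 rose over the LPS course (Trim30c, Trim30b, Trim30d, Trim21, Trim30a, Trim34a, Trim12c, Trim12a and Trim5) and Trim68 fell, beside the 32.9% and 54.7% of all genes given above, which stand as the background for every such count over the LPS course. The cluster's core runs from Trim34a to Trim30d, with Trim30b 2.04 kb from Trim12c and Trim30a 4.82 kb from Trim30d. The median of the largest log2 change over the 10 was 2.83. Close copies in this cluster can lose or exchange reads, since reads with more than 1 match were removed by the authors, so the values of single copies are uncertain.

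Trim30c (chr7:104379117-104400778, GRCm38.p6) read 43, 48 and 48 in the untreated samples. After LPS it read 32, 22 and 23 (0.5 h), 212, 182 and 182 (1 h), 1478, 1413 and 1465 (2 h), 1539, 1824 and 1800 (4 h). It dipped at 0.5 h and then climbed without overlap with untreated at any time. The log2 change was -0.85 ± 0.14 (adjusted p = 0.000118) at 0.5 h, 2.03 ± 0.14 (adjusted p = 7.28e-09) at 1 h and 5.18 ± 0.14 (adjusted p = 1.59e-13) at 4 h, where the fold was 36.3-fold. (All log2 changes here are on the scale of the value plus 1, with the SE of the limma fit and n = 3 per group.) IL-4 gave 50, 62 and 65 (0.5 h), 61, 52 and 57 (1 h), 45, 38 and 30 (2 h), 27, 16 and 21 (4 h), and the gene was below untreated at 4 h at -1.11 ± 0.19 (adjusted p = 0.000721). That IL-4 call was lost without replicate 2 (adjusted p = 0.057).

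Trim30a (chr7:104409025-104465193), known as a brake on Toll-like receptor signalling that targets the TAB2 and TAB3 adaptors, read 579, 506 and 539 untreated and 646, 511 and 540 (0.5 h), 1327, 753 and 731 (1 h), 6238, 5130 and 5467 (2 h), 6226, 5205 and 5283 (4 h) after LPS. The change at 0.5 h was 0.06 ± 0.18 (adjusted p = 0.812), or -0.45 with equal totals (adjusted p = 0.0347), and the gene rose by 0.74 ± 0.18 (adjusted p = 0.00271) at 1 h and 3.37 ± 0.18 (adjusted p = 3.25e-10) at 2 h. Replicate 1 was the highest of the 3 at each LPS time. With equal totals the 1 h call was lost (adjusted p = 0.446). The IL-4 samples read 560, 417 and 487 (0.5 h), 457, 377 and 485 (1 h), 452, 356 and 390 (2 h), 383, 291 and 314 (4 h). IL-4 values lay below untreated without overlap from 1 h on, and the call at 4 h was -0.72 ± 0.14 (adjusted p = 0.00142), lost without replicate 3 (adjusted p = 0.0733).

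Trim30d (chr7:104470014-104507849) lies next to Trim30a. Its values were 188, 151 and 176 untreated and 194, 148 and 163 (0.5 h), 330, 146 and 156 (1 h), 2182, 1828 and 1869 (2 h), 3141, 2916 and 3215 (4 h) after LPS. The change was 0.20 ± 0.23 (adjusted p = 0.468) at 1 h and 4.17 ± 0.23 (adjusted p = 3.11e-10) at 4 h, so the rise came after 1 h. After IL-4 it read 236, 128 and 152 (0.5 h), 187, 127 and 131 (1 h), 176, 112 and 124 (2 h), 154, 111 and 115 (4 h), a change that was not called at any time (F test adjusted p = 0.421) but passed with the replicate block (adjusted p = 0.00814, and 0.00373 for its 4 h change of -0.45). Gm16464, annotated on the same strand inside Trim30d, read 2 to 218.

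Trim30b (chr7:104355398-104358646) was nearly silent without LPS. It read 1, 3 and 5 untreated, 2, 2 and 2 (0.5 h), 7, 4 and 5 (1 h), 29, 55 and 49 (2 h), 71, 118 and 122 (4 h) after LPS and 1, 2 and 4 (0.5 h), 0, 1 and 2 (1 h), 1, 1 and 0 (2 h), 2, 1 and 1 (4 h) after IL-4. The log2 change at LPS 4 h was 4.81 ± 0.39. The whole gene lies inside Gm38525 on the same strand, which went from a mean of 12.3 untreated to 725 at LPS 4 h, and Gm36430 on the other strand went from 12.3 to 286. Strand cannot separate the reads of Trim30b from those of Gm38525. Reads of Gm36430 cannot be told apart where the counting did not use strand, which is not given in the sources used here. The part of both genes in the rise of Trim30b was not tested.

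Trim21 (chr7:102557920-102565482), the cytosolic antibody receptor that marks antibody-coated viruses for degradation, read 21, 29 and 25 untreated. After LPS it read 10, 7 and 16 (0.5 h), 67, 66 and 45 (1 h), 357, 509 and 460 (2 h), 447, 481 and 455 (4 h). All 3 values at 0.5 h were lower than in any untreated sample and all from 1 h on were higher. The changes were -1.17 ± 0.25 (adjusted p = 0.000886) at 0.5 h, 1.20 ± 0.25 (adjusted p = 0.000546) at 1 h and 4.16 ± 0.25 (adjusted p = 7.36e-10) at 4 h, a 17.9-fold rise. Without replicate 2 the 0.5 h call was lost (adjusted p = 0.054). IL-4 values of 29, 25 and 40 (0.5 h), 34, 38 and 32 (1 h), 26, 22 and 27 (2 h), 23, 20 and 24 (4 h) gave no call (F test adjusted p = 0.0822).

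Trim34a (chr7:104244457-104262239) and Trim12c (chr7:104338754-104353358), relatives of the retroviral restriction factor TRIM5 of primates, rose less. Trim34a read 109, 94 and 97 untreated and 61, 63 and 59 (0.5 h), 93, 77 and 77 (1 h), 368, 491 and 493 (2 h), 492, 480 and 504 (4 h) after LPS. Its change was -0.70 ± 0.14 (adjusted p = 0.000457) at 0.5 h and 2.29 ± 0.14 (adjusted p = 7.54e-10) at 4 h, a fall before a rise. Trim12c read 42, 40 and 50 untreated and 22, 25 and 27 (0.5 h), 33, 40 and 39 (1 h), 145, 139 and 152 (2 h), 182, 185 and 227 (4 h) after LPS, with -0.81 ± 0.16 (adjusted p = 0.000524) at 0.5 h and 2.14 ± 0.16 (adjusted p = 1.03e-08) at 4 h. IL-4 values were 110, 93 and 97 (0.5 h), 108, 106 and 107 (1 h), 99, 91 and 77 (2 h), 86, 84 and 71 (4 h) for Trim34a and 38, 30 and 40 (0.5 h), 30, 44 and 41 (1 h), 38, 41 and 35 (2 h), 39, 42 and 46 (4 h) for Trim12c. Neither was called over the IL-4 course, although Trim34a passed with the replicate block (adjusted p = 0.0158). Trim12c overlaps Gm36430 on the other strand over 1322 bases, and the mean of Gm36430 went from 12.3 untreated to 286 at LPS 4 h. The part of Gm36430 reads in Trim12c was not tested.

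Trim12a rose by 1.89 ± 0.11 (adjusted p = 1.02e-09) at 2 h and 2.01 ± 0.11 (adjusted p = 5.29e-10) at 4 h. Its 0.5 h change of -0.29 ± 0.11 (adjusted p = 0.047) was lost without replicate 1, 2 or 3 (adjusted p = 0.163, 0.166 and 0.189) and with median-of-ratios scaling (adjusted p = 0.843). Trim5 was called at 4 h only, at 0.73 ± 0.29 (adjusted p = 0.0394), and its F test call was lost without replicate 2 (adjusted p = 0.0972) or 3 (0.113). In these fits its largest change was a fall (-0.77 and -0.71), and the 4 h call was lost as well (adjusted p = 0.237 and 0.268). With equal totals Trim5 was below untreated at 1 h (-1.15, adjusted p = 0.00244), and its 4 h change was 0.14 (adjusted p = 0.678). Trim68 (chr7:102677579-102687327), which like Trim21 lies outside the cluster's core, was low throughout (12, 15 and 20 untreated). It fell by -1.97 ± 0.53 (adjusted p = 0.00448) at 1 h. Its F test call was lost without replicate 2 (0.0981), without replicate 3 (0.0761) and without untreated replicate 3 (0.0506).

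Promoter letters are shown because 9 of these 10 genes were called as rises. RefSeq promoters on GRCm38.p6, from 250 bases before to 50 bases after the gene start, were matched for 29 of the 40 TRIM genes and searched on both strands for GAAANNGAAA, the core of the interferon-stimulated response element (ISRE). The letters were found in 9 of the 29 (Trim5, Trim12a, Trim12c, Trim21, Trim26, Trim30a, Trim30d, Trim34a and Trim2), against 3.99% of the 27025 genes with a promoter in the table. Of those 9 genes, 8 rose over the LPS course (Trim5 with the limits given above) and Trim2 fell. Of the 20 without the letters, 6 rose (Trim13, Trim15, Trim25, Trim30b, Trim30c and Trim56), 12 fell and 2 were not called. The match of Trim2 is not printed. It lay in a promoter at chr3:84212789-84213088, inside the gene (chr3:84160439-84304775, minus strand) and away from its start. Trim30a held a further match, also not printed, in a second promoter at chr7:104446076-104446375. The stretches of the other 8 genes follow, 5′ to 3′ on the strand of the gene, with the matched letters in capitals (TTTCNNTTTC is the same core read on the other strand).
Trim30a, chr7:104465210-104465249, minus strand: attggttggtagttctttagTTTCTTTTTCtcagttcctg
Trim30d, chr7:104507871-104507910, minus strand: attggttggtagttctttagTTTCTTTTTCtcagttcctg
Trim5, chr7:104288136-104288175, minus strand: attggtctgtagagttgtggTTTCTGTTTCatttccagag
Trim12a, chr7:104315466-104315505, minus strand: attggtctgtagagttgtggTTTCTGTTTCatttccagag
Trim12c, chr7:104353359-104353398, minus strand: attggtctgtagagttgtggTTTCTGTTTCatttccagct
Trim34a, chr7:104244447-104244486, plus strand: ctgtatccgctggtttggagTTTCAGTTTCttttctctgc
Trim21, chr7:102565453-102565489, minus strand: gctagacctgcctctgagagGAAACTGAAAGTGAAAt
Trim26, chr17:36836966-36837011, plus strand: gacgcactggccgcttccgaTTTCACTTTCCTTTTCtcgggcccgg

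The Trim30a and Trim30d stretches were identical over 40 bases, as were those of Trim5 and Trim12a, and Trim12c differed from both of the latter at 2 of 40 bases. Trim5 and Trim12a thus share these letters while their values differed: at LPS 2 h the log2 change was -0.01 ± 0.29 for Trim5 and 1.89 ± 0.11 for Trim12a. Trim21 and Trim26 held 2 overlapping matches each. Trim30c, with the largest rise, had no match in its window, and neither did Trim25. Other motifs were rarer among the 29. The NF-kB letters GGGANNTTCC were found in Trim28 alone (1.63% of all genes), the STAT letters TTCNNNGAA in Trim15, Trim30c and Trim45 (9.55%), and the spaced letters TTCNNNNGAA preferred by STAT6 in Trim39 and Trim68 (8.01%).

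**Figure D2:**
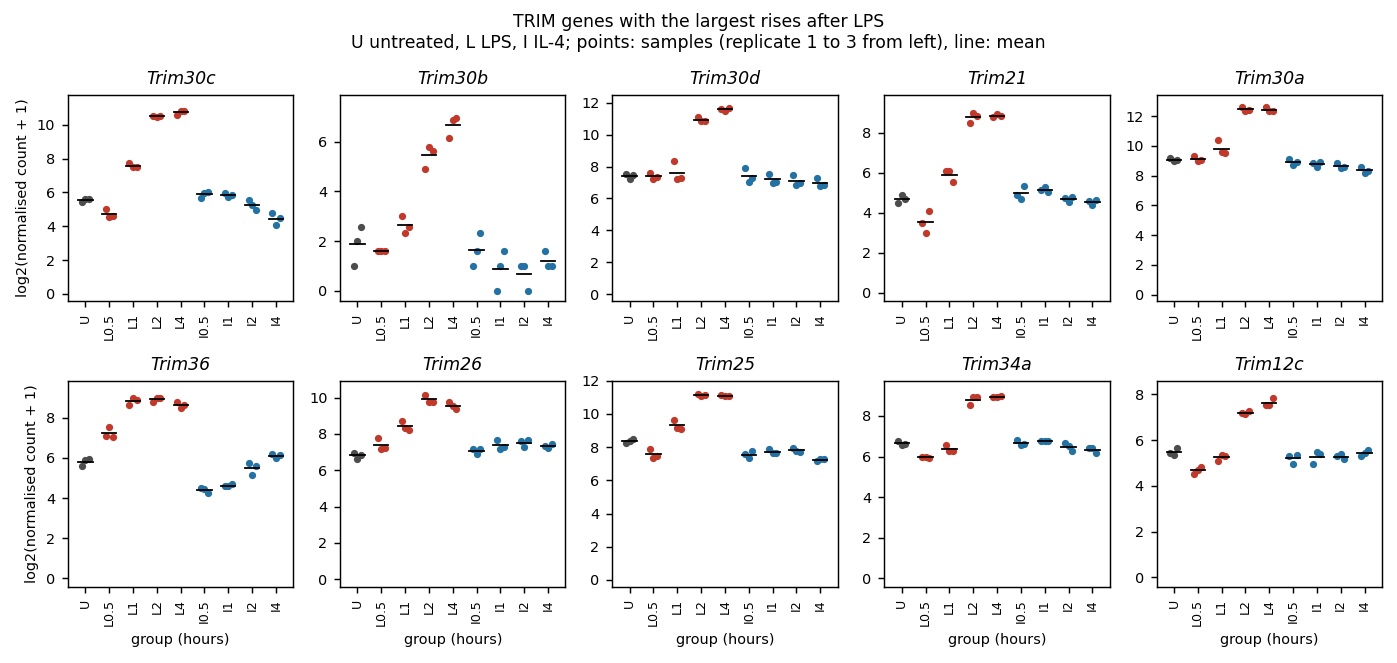
Log2 of the normalised read count plus 1 (y axis) in every sample of the 9 groups (x axis: U untreated, L LPS and I IL-4 with hours) for the 10 TRIM genes with the largest rises after LPS, with points for replicates 1 to 3 and a line for the mean. Trim30c, Trim21, Trim25, Trim34a and Trim12c dip at LPS 0.5 h before they climb, and Trim36 climbs from 0.5 h.

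A list of other PRY-SPRY genes outside the chromosome 7 cluster held 13 tested genes. Genes placed in the RING-less and COS-box groups below were not in it, whatever their C-terminal domain. Of the 13, 5 rose over the LPS course (Trim25, Trim26, Trim43c, Trim15 and Trim35). The other 8 fell (Trim11, Trim17, Trim27, Trim39, Trim41, Trim47, Trim62 and Trim65), and both shares were near those of all genes. Trim25 (chr11:88999403-89020293), the ubiquitin ligase known to activate the RNA sensor RIG-I, read 305, 334 and 359 untreated and 236, 164 and 178 (0.5 h), 800, 579 and 553 (1 h), 2350, 2152 and 2216 (2 h), 2228, 2163 and 2189 (4 h) after LPS. It was lower than untreated at 0.5 h, at -0.80 ± 0.15 (adjusted p = 0.000334), higher at 1 h, at 0.93 ± 0.15 (adjusted p = 5.85e-05), and 6.72-fold higher at 2 h, at 2.75 ± 0.15 (adjusted p = 2.79e-10). IL-4 gave 189, 159 and 215 (0.5 h), 233, 203 and 199 (1 h), 251, 214 and 207 (2 h), 140, 155 and 158 (4 h). Every IL-4 sample was below every untreated sample, with changes of -0.83 ± 0.12 (adjusted p = 0.000217) at 0.5 h and -1.13 ± 0.12 (adjusted p = 8.94e-06) at 4 h. The IL-4 calls at 0.5 h and 4 h held when any replicate was left out, and that at 2 h was lost without replicate 2 (adjusted p = 0.0591) or 3 (0.0737).

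Trim26 (chr17:36837146-36859398), a ligase of antiviral signalling in the major histocompatibility region of chromosome 17, read 125, 98 and 115 untreated and 218, 143 and 149 (0.5 h), 426, 319 and 297 (1 h), 1140, 862 and 882 (2 h), 881, 745 and 660 (4 h) after LPS. Its rise was 1.60 ± 0.19 (adjusted p = 2.48e-06) at 1 h and 3.08 ± 0.19 (adjusted p = 1.05e-09) at 2 h, with replicate 1 the highest at every LPS time. The rise of 0.57 ± 0.19 (adjusted p = 0.0179) at 0.5 h was lost without replicate 2 (adjusted p = 0.109), without replicate 3 (0.0634), without untreated replicate 2 (0.0785) and with equal totals (0.786). Trim26 was also the only TRIM gene whose largest change after IL-4 was a called rise. The IL-4 values were 145, 116 and 143 (0.5 h), 204, 145 and 156 (1 h), 196, 155 and 199 (2 h), 163, 150 and 175 (4 h), with 0.70 ± 0.15 (adjusted p = 0.00306) at 2 h, a call that was lost without replicate 3 (adjusted p = 0.095).

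Trim15 ends 1.29 kb from the end of Trim26 on the facing strand. It read 5, 6 and 5 untreated and 15, 25 and 17 at LPS 4 h, a log2 change of 1.63 ± 0.37. Trim43c rose from 9, 8 and 10 to 45, 41 and 40 at 4 h, at 2.11 ± 0.27 (adjusted p = 5.91e-06), beside an overlapping gene on the other strand, 9330159M07Rik, whose mean went from 12.7 to 62. Trim35 rose by 0.76 ± 0.14 (adjusted p = 0.000283) at 1 h and 0.95 ± 0.14 (adjusted p = 3.07e-05) at 4 h. With equal totals its 1 h call was lost (adjusted p = 0.263).

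Trim65 (chr11:116124708-116131128) is known to activate the RNA sensor MDA5 by ubiquitination. It had the largest fall among the TRIM genes with a mean of at least 50 in the higher group. It read 61, 66 and 59 untreated and 31, 40 and 25 (0.5 h), 5, 13 and 8 (1 h), 2, 2 and 3 (2 h), 6, 7 and 7 (4 h) after LPS. At 2 h the group lay at or below the floor of 3 counts, so the fall there was at least 20.7-fold (adjusted p = 8.08e-09), and at 4 h the change was -3.04 ± 0.31 (adjusted p = 4.04e-07). Values at 4 h were above those at 2 h in all replicates and still below untreated. The 0.5 h change of -0.96 ± 0.31 (adjusted p = 0.0161) was lost without replicate 3 (adjusted p = 0.174) and without untreated replicate 2 (0.052). IL-4 values were 37, 34 and 34 (0.5 h), 31, 35 and 35 (1 h), 54, 54 and 46 (2 h), 46, 67 and 59 (4 h), below untreated at 1 h at -0.86 ± 0.14 (adjusted p = 0.000538) and overlapping untreated at 4 h.

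Trim47, the neighbour of Trim65 at a distance of 14.47 kb on the same strand, also fell. It read 16, 23 and 16 untreated and 6, 5 and 8 (0.5 h), 6, 12 and 9 (1 h), 4, 2 and 1 (2 h), 2, 1 and 1 (4 h) after LPS. At 4 h the fall was at least 6.11-fold (adjusted p = 4.13e-06). On the same chromosome Trim17 and Trim11, 5.02 kb apart, fell early. Trim17 read 29, 44 and 36 untreated and 8, 7 and 4 at 1 h, a change of -2.37 ± 0.28 (adjusted p = 2.72e-06), and Trim11 read 148, 134 and 159 untreated and 74, 56 and 67 at 1 h, a change of -1.16 ± 0.19 (adjusted p = 7.16e-05). Trim11 stood at -0.17 ± 0.19 (adjusted p = 0.45) at 2 h, but with equal totals it was still below untreated at 2 h (-0.82, adjusted p = 0.00109) and 4 h (-0.87, adjusted p = 0.000691). Its rise between 0.5 h and 4 h was lost without replicate 2 (adjusted p = 0.0728).

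The other SPRY genes that fell did so by 0.5 h or 1 h. Trim27, which ubiquitinates the WASH complex of endosomes, changed by -1.81 ± 0.26 (adjusted p = 3.77e-05) at 0.5 h and -0.30 ± 0.26 (adjusted p = 0.334) at 1 h. Trim41 changed by -1.12 ± 0.18 (adjusted p = 0.000101) at 0.5 h and -1.23 ± 0.18 (adjusted p = 2.88e-05) at 1 h. Trim62 reached -2.23 ± 0.44 (adjusted p = 0.000396) at 2 h and was not called at 0.5 h (adjusted p = 0.064), where it passed with the replicate block (0.0372), pseudocount 8 (0.0128), equal totals (0.00607) and without untreated replicate 1 (0.0474). Trim39 was weaker, at -0.94 ± 0.27 (adjusted p = 0.00641) at 2 h, and its F test call was lost without replicate 2 (adjusted p = 0.354), replicate 3 (0.139), untreated replicate 1 (0.0519) or untreated replicate 2 (0.142).

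The 3 tested TIF1 genes, nuclear TRIM proteins whose PHD finger and bromodomain read histones, all fell over the LPS course, and the fourth, Trim66, lay under the filter. Trim24 (chr6:37870811-37968445), a cofactor of nuclear receptors, read 209, 248 and 267 untreated and 186, 219 and 209 (0.5 h), 75, 112 and 106 (1 h), 46, 40 and 48 (2 h), 39, 30 and 32 (4 h) after LPS. The change was -0.23 ± 0.17 (adjusted p = 0.277) at 0.5 h (-0.74 with equal totals, adjusted p = 0.0017), -1.31 ± 0.17 (adjusted p = 9.54e-06) at 1 h, -2.40 ± 0.17 (adjusted p = 7.95e-09) at 2 h and -2.81 ± 0.17 (adjusted p = 1.27e-09) at 4 h, 7-fold below untreated. After IL-4 it read 227, 283 and 269 (0.5 h), 212, 236 and 265 (1 h), 154, 176 and 166 (2 h), 152, 180 and 166 (4 h), below untreated at 2 h at -0.54 ± 0.12 (adjusted p = 0.00387) and at 4 h at -0.53 ± 0.12 (adjusted p = 0.00456). Both IL-4 calls were lost without replicate 2 (adjusted p = 0.0673 and 0.0695) or replicate 3 (0.105 and 0.119).

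Trim28 (chr7:13024152-13031032), the corepressor KAP1 that silences retroelements with KRAB zinc finger proteins, read 43, 58 and 53 untreated and 26, 17 and 25 (0.5 h), 23, 22 and 16 (1 h), 29, 32 and 32 (2 h), 35, 37 and 31 (4 h) after LPS. The fall was largest at 1 h, at -1.30 ± 0.22 (adjusted p = 0.00011), with no overlap with untreated at any LPS time. At 4 h the change was -0.56 ± 0.22 (adjusted p = 0.0375), a call lost without replicate 2 (adjusted p = 0.163), replicate 3 (0.247), untreated replicate 2 (0.129) or untreated replicate 3 (0.0943), and with median-of-ratios scaling (0.216). IL-4 values were 32, 47 and 37 (0.5 h), 58, 60 and 57 (1 h), 67, 53 and 52 (2 h), 54, 49 and 51 (4 h). The F test over IL-4 was called (adjusted p = 0.0426) with no single time called, and it was lost without replicate 1 (adjusted p = 0.13), 2 (0.105) or 3 (0.367) and without untreated replicate 3 (0.0599).

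Trim33 (chr3:103279293-103358770), a regulator of SMAD4 and of transcription in macrophages, read 426, 443 and 396 untreated and 268, 222 and 262 (0.5 h), 355, 388 and 367 (1 h), 288, 275 and 201 (2 h), 247, 235 and 214 (4 h) after LPS. Its course had 2 low points, with -0.75 ± 0.14 (adjusted p = 0.000271) at 0.5 h, -0.19 ± 0.14 (adjusted p = 0.241) at 1 h and -0.86 ± 0.14 (adjusted p = 4.93e-05) at 4 h. With equal totals it was below untreated at 1 h too (-0.77, adjusted p = 0.000154). After IL-4 it read 344, 350 and 332 (0.5 h), 406, 401 and 421 (1 h), 403, 421 and 426 (2 h), 357, 372 and 363 (4 h). The fall at IL-4 0.5 h was -0.30 ± 0.06 (adjusted p = 0.00371), lost without replicate 2 (adjusted p = 0.134) or 3 (0.0716), and values at IL-4 1 h overlapped untreated.

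Of the 4 tested TRIM genes with NHL repeats or a filamin-like domain alone, 3 fell over the LPS course (Trim2, Trim3 and Trim32) and Trim45 was not called. Trim3 was the best covered. It read 164, 153 and 160 untreated, 103, 98 and 92 at 0.5 h and 228, 198 and 205 at 2 h, so a fall of -0.70 ± 0.11 (adjusted p = 7.2e-05) was followed by a rise of 0.40 ± 0.11 (adjusted p = 0.00468). That 2 h rise was lost without replicate 2 (adjusted p = 0.0661) or 3 (0.0609), and with equal totals the change was a fall of -0.26 (adjusted p = 0.0472). Trim32, mutated in a limb-girdle muscular dystrophy, went from 12, 19 and 15 to 4, 3 and 2 at 0.5 h, at -2.04 ± 0.42 (adjusted p = 0.000848). Its F test call was lost without replicate 2 (adjusted p = 0.102) or 3 (0.0903). Trim32 lies inside Astn2 on the other strand, which read 3 to 23, and the part of Astn2 reads in Trim32 was not tested. Trim2 went from 7, 9 and 9 to 2, 3 and 2 at 4 h, at or below the floor and at least 2.78-fold lower, with the F test call lost without replicate 1 (adjusted p = 0.0563) or 3 (0.23). Trim45 read 4, 16 and 16 untreated and 2, 3 and 4 at 1 h.

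Trim36 (chr18:46165300-46212607), the only passing gene of the microtubule-binding group with a COS box, moved in opposite directions after the 2 stimuli. It read 48, 58 and 61 untreated and 135, 187 and 130 (0.5 h), 402, 500 and 477 (1 h), 438, 503 and 512 (2 h), 435, 356 and 402 (4 h) after LPS. It was above untreated by 0.5 h, at 1.41 ± 0.16 (adjusted p = 2.24e-06), and reached 3.02 ± 0.16 (adjusted p = 2.66e-10) at 1 h and 3.10 ± 0.16 (adjusted p = 1.15e-10) at 2 h, 8.59-fold above untreated. With IL-4 the values were 22, 21 and 18 (0.5 h), 23, 23 and 25 (1 h), 52, 35 and 48 (2 h), 73, 62 and 70 (4 h). The 3 values at IL-4 0.5 h and at 1 h lay below every untreated value, with -1.41 ± 0.16 (adjusted p = 3.64e-05) and -1.19 ± 0.16 (adjusted p = 0.000106), and the 4 h change was 0.29 ± 0.16 (adjusted p = 0.22). These LPS calls and the IL-4 calls at 0.5 h and 1 h held without any 1 replicate and in each rescaling.

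Both membrane-anchored TRIM genes passed the filter. Trim13, a ligase of the endoplasmic reticulum, read 21, 23 and 21 untreated, 22, 28 and 28 (0.5 h), 48, 51 and 56 (1 h), 33, 26 and 33 (2 h), 43, 55 and 46 (4 h) after LPS and 9, 9 and 10 (0.5 h), 9, 8 and 5 (1 h), 8, 10 and 8 (2 h), 19, 10 and 18 (4 h) after IL-4. Its LPS values from 1 h on lay above untreated and its IL-4 values below, although with equal totals the LPS 2 h change was -0.16 (adjusted p = 0.46). The changes at 1 h were 1.21 ± 0.19 (adjusted p = 4.89e-05) after LPS and -1.48 ± 0.26 (adjusted p = 0.000799) after IL-4, and the latter was lost without replicate 3 (adjusted p = 0.0564). Trim13 overlaps Dleu2 on the other strand over 3111 bases, and Dleu2 read 1082 to 6841, so the part of its reads in Trim13 was not tested. Trim59 read 26, 92 and 105 untreated and 5, 55 and 46 (0.5 h), 6, 34 and 32 (1 h), 8, 32 and 40 (2 h), 8, 19 and 27 (4 h) after LPS. Replicate 1 was the lowest in every group. The change at 4 h was -1.91 ± 0.87 (adjusted p = 0.068), and with the replicate block the adjusted p was 1.74e-05.

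Among 3 TRIM genes whose protein lacks the RING finger, Trim14 rose and Trim16 and Trim44 fell over the LPS course. Trim14, an adaptor of the sensing protein MAVS, read 203, 257 and 266 untreated and 94, 102 and 108 (0.5 h), 139, 119 and 112 (1 h), 832, 907 and 974 (2 h), 887, 901 and 938 (4 h) after LPS. It was below untreated at 0.5 h, at -1.24 ± 0.13 (adjusted p = 1.03e-06), and at 1 h, at -0.96 ± 0.13 (adjusted p = 8.67e-06), and above it at 2 h, at 1.90 ± 0.13 (adjusted p = 3.01e-09). Trim16, which acts in the clearance of damaged lysosomes, read 38, 50 and 59 untreated and 8, 14 and 16 (0.5 h), 5, 26 and 23 (1 h), 7, 5 and 11 (2 h), 3, 2 and 1 (4 h) after LPS, with a fall at 4 h of at least 16.3-fold (adjusted p = 3.45e-06). Its IL-4 values lay under untreated at each time, where it read 21, 23 and 17 (0.5 h), 18, 23 and 36 (1 h), 14, 17 and 18 (2 h), 9, 23 and 14 (4 h), with -1.68 ± 0.31 (adjusted p = 0.00121) at 4 h, lost without replicate 3 (adjusted p = 0.0518).

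Trim44 (chr2:102300119-102400900), a TRIM protein with a ubiquitin-protease zinc finger, was lowest at LPS 1 h. It read 378, 270 and 284 untreated and 347, 273 and 271 (0.5 h), 126, 100 and 96 (1 h), 236, 210 and 204 (2 h), 360, 260 and 263 (4 h) after LPS. The change was -1.52 ± 0.17 (adjusted p = 1.74e-06) at 1 h, -0.50 ± 0.17 (adjusted p = 0.0172) at 2 h and -0.08 ± 0.17 (adjusted p = 0.71) at 4 h, by which time the samples overlapped untreated. With equal totals it was below untreated at 0.5 h (-0.57, adjusted p = 0.00807) and 4 h (-0.69, adjusted p = 0.00188) as well. The 2 h call was lost without replicate 2 (adjusted p = 0.0733), without replicate 3 (0.0979), without untreated replicate 1 (0.0955) and with median-of-ratios scaling (0.285). IL-4 values of 429, 331 and 279 (0.5 h), 391, 305 and 322 (1 h), 482, 352 and 369 (2 h), 546, 325 and 363 (4 h) were not called (F test adjusted p = 0.461) but passed with the replicate block (adjusted p = 0.00635), where the 4 h change of 0.38 was a rise (adjusted p = 0.00301).

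The 4 remaining TRIM genes have other C-terminal domains, and Trim56 rose while Trim37, Trim8 and Trim23 fell after LPS. Trim37 (chr11:87127075-87250860), whose MATH-domain protein acts at centrosomes, read 92, 136 and 159 untreated and 75, 94 and 133 (0.5 h), 12, 20 and 22 (1 h), 16, 13 and 10 (2 h), 12, 9 and 6 (4 h) after LPS. It overlapped untreated at 0.5 h and fell by -2.78 ± 0.32 (adjusted p = 1.92e-06) at 1 h and -3.71 ± 0.32 (adjusted p = 5.47e-08) at 4 h, 13.1-fold below untreated. IL-4 values were 81, 99 and 111 (0.5 h), 85, 81 and 93 (1 h), 80, 82 and 87 (2 h), 116, 86 and 75 (4 h). Only IL-4 2 h was called, at -0.59 ± 0.20 (adjusted p = 0.0364), and that call was lost without replicate 2 (adjusted p = 0.32), replicate 3 (0.24), untreated replicate 2 (0.114) or untreated replicate 3 (0.157). With the replicate block IL-4 1 h was called as well (adjusted p = 0.0427).

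Trim8 (chr19:46501648-46516455), a ligase known to act on TAK1 in inflammatory signalling, read 193, 201 and 190 untreated and 72, 90 and 67 (0.5 h), 167, 180 and 185 (1 h), 48, 52 and 58 (2 h), 72, 44 and 42 (4 h) after LPS. A fall of -1.35 ± 0.19 (adjusted p = 2.3e-05) at 0.5 h was followed by values just under untreated at 1 h, at -0.13 ± 0.19 (adjusted p = 0.545) or -0.71 with equal totals (adjusted p = 0.00291), and by a further fall of -1.87 ± 0.19 (adjusted p = 3.53e-07) at 2 h and -1.91 ± 0.19 (adjusted p = 2.79e-07) at 4 h. After IL-4 it read 105, 73 and 86 (0.5 h), 157, 141 and 133 (1 h), 172, 132 and 142 (2 h), 170, 152 and 150 (4 h). Of the IL-4 times it was lowest at 0.5 h, at -1.15 ± 0.13 (adjusted p = 3.1e-05), a call that held without any 1 replicate, and the 4 h change of -0.31 ± 0.13 (adjusted p = 0.107) passed with the replicate block (adjusted p = 0.0266).

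Trim23 (chr13:104178839-104203475), a ligase with an ARF-type GTPase domain, read 100, 154 and 154 untreated and 19, 50 and 76 (0.5 h), 37, 49 and 47 (1 h), 43, 57 and 59 (2 h), 49, 77 and 75 (4 h) after LPS. Its values at every LPS time lay under every untreated value, with the largest change at 0.5 h, at -1.65 ± 0.37 (adjusted p = 0.00152). Replicate 1 was the lowest at each LPS time. The F test call was lost without replicate 2 (adjusted p = 0.0991), and the 4 h change of -1.01 ± 0.37 (adjusted p = 0.0262) was lost without replicate 2 (0.151), replicate 3 (0.0885), untreated replicate 2 (0.0819) or untreated replicate 3 (0.0819). IL-4 values of 92, 105 and 142 (0.5 h), 120, 154 and 150 (1 h), 100, 154 and 142 (2 h), 108, 152 and 138 (4 h) were not called. Trim56, a ligase of DNA sensing, read 24, 25 and 42 untreated and 33, 31 and 28 (0.5 h), 111, 68 and 72 (1 h), 104, 106 and 106 (2 h), 99, 132 and 110 (4 h) after LPS, and rose by 1.45 ± 0.23 (adjusted p = 5.09e-05) at 1 h and 1.91 ± 0.23 (adjusted p = 2.42e-06) at 4 h.

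**Figure D3:**
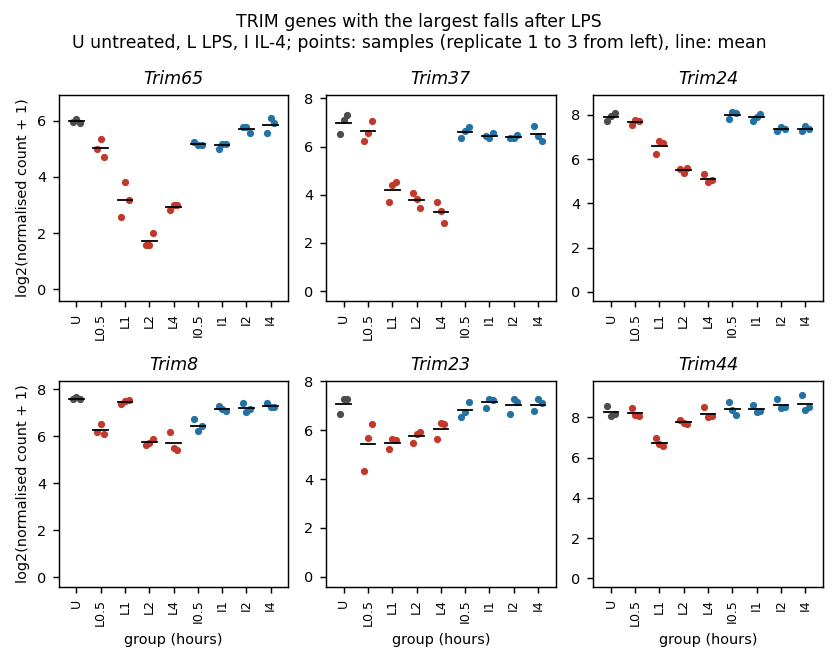
Log2 of the normalised read count plus 1 (y axis) in every sample of the 9 groups (x axis: U untreated, L LPS and I IL-4 with hours) for 6 TRIM genes that fell after LPS, with points for replicates 1 to 3 and a line for the mean. They had the largest falls among genes with a mean of at least 50 in the higher group and no overlap with untreated. Trim37 and Trim24 keep falling to 4 h, Trim44 is low at 1 h, and Trim8 is low at 0.5, 2 and 4 h.

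Trim21, Trim25, Trim14, Trim34a, Trim12a, Trim12c and Trim30c were called below untreated at LPS 0.5 h and above it at 4 h, which is 7 of the 40 TRIM genes (17.5%) against 4.65% of all genes. From 0.5 h to 4 h the rise was 6.03 ± 0.14 (adjusted p = 2.43e-13) for Trim30c, 5.34 ± 0.25 (adjusted p = 4.92e-11) for Trim21, 3.52 ± 0.15 (adjusted p = 2.12e-11) for Trim25 and 3.15 ± 0.13 (adjusted p = 1.28e-11) for Trim14. It was 2.99 ± 0.14 (adjusted p = 4.28e-11) for Trim34a, 2.95 ± 0.16 (adjusted p = 2.76e-10) for Trim12c and 2.29 ± 0.11 (adjusted p = 1.25e-10) for Trim12a. Trim36, Trim26 and Trim43c were the 3 TRIM genes above untreated at 0.5 h, of which Trim36 moved most. Trim43c at 0.5 h was lost without replicate 2 (adjusted p = 0.266), replicate 3 (0.0967), untreated replicate 1 (0.0526) or untreated replicate 2 (0.0791) and with equal totals (0.36), as Trim26 was.

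The early falls were counted by gene span. Of 34 TRIM genes that span under 50 kb, 20 were below untreated at LPS 0.5 h (58.8%, median log2 change -0.90), against 38.5% of all 10380 tested genes of that span. Of 6 TRIM genes of at least 50 kb, 1 was (Trim33), against 22.1% of 3521. Trim2, Trim37, Trim44, Trim24 and Trim30a, which span 144337, 123786, 100782, 97635 and 56169 bases, were not called at that time, although with equal totals all but Trim2 were. At 2 h, 5 of the 6 long genes were below untreated (all but Trim30a), against 43.7% of all genes of that span, and 13 of the 34 shorter ones (38.2%), against 37.4%. The 2 h calls of Trim2 and Trim44 were lost with median-of-ratios scaling (adjusted p = 0.12 and 0.285). That of Trim2 was also lost without replicate 2 (0.118) or 3 (0.21). Trim24 at 0.5 h was 0.34 below IL-4 on the log2 scale, and that difference was not called (adjusted p = 0.0576) but passed with the replicate block (0.0305), equal totals (0.000196), pseudocount 8 (0.0468), a mean of at least 50 (0.0493) and without replicate 1 (0.0142).

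**Figure D4:**
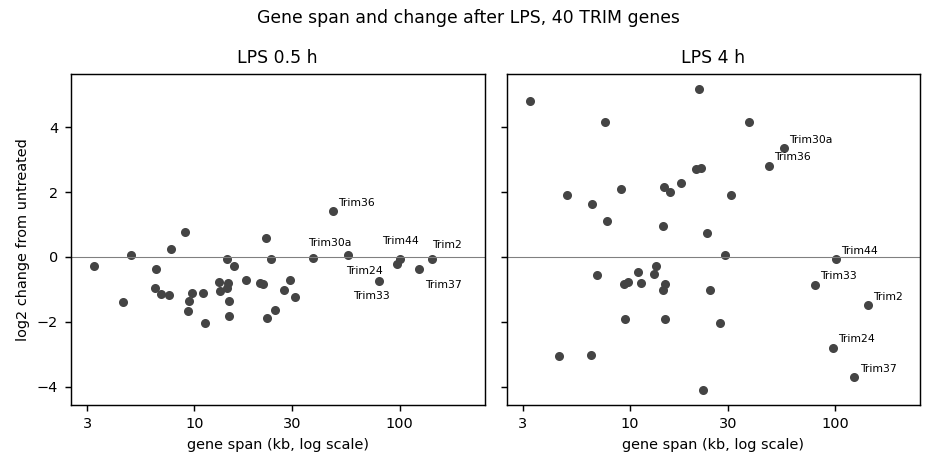
Log2 change from untreated (y axis) at LPS 0.5 h (left) and 4 h (right) against gene span (x axis, kb, log scale) for the 40 TRIM genes, with the longest named. At 0.5 h the genes of at least 50 kb other than Trim33 lie between -0.36 and 0.06, while Trim36 (47308 bases) lies at 1.41. At 4 h Trim24 and Trim37 lie far below that range.

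IL-4 moved fewer TRIM genes, by smaller amounts and mostly down. The courses of LPS and IL-4 share the same 3 untreated samples. The F test over the IL-4 times called 17 of 40 (40.3% of all genes), of which 16 had a fall as the largest change (20.9%) and 1 a rise (19.4%). Among the 16, Trim14 read 316, 280 and 298 at IL-4 2 h, above 203, 257 and 266 untreated. Its largest change turned to a rise without replicate 2 (0.40) or 3 (0.38), as did that of Trim35 without replicate 3 (0.33), and these calls were lost there. At 0.5 h, 1 TRIM gene was above untreated (8.15% of all genes) and 8 were below (8.14%). By 1 h, 2 were above (11.1%) and 6 below (9.83%). By 2 h, 1 was above (14.3%) and 7 below (13.2%), and by 4 h, 1 was above (13.4%) and 7 below (12.5%). Between 0.5 h and 4 h of IL-4, 3 rose (14.6%) and 4 fell (12.7%). With equal totals limma called 0 above (0 at an unadjusted p under 0.05 as well) and 11 below at 0.5 h. At 1 h it called 1 above and 9 below, and from 0.5 h to 4 h 11 rose and 4 fell. The median log2 change of all tested genes was then -0.15 at 0.5 h and -0.11 at 1 h, and the shares of all genes were not counted.

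Many IL-4 calls did not hold with fewer libraries. Such fits have fewer samples per group, so a lost call alone does not show that the change rested on the library left out. Without replicate 2 the F test called 7, without replicate 3 it called 4, and without replicate 1 it called 20. Of the 57 calls made over the IL-4 course by the F test, at the 4 times and between 4 h and 0.5 h, 44 were lost in at least 1 fit without a replicate number or an untreated library. With the replicate block the F test called 21, and IL-4 4 h went from 8 calls to 14 and the comparison of 4 h with 0.5 h from 7 to 12. The calls gained at 4 h were Trim30d, Trim34a, Trim44, Trim59, Trim8 and Trim35 (adjusted p = 0.0488 for Trim35 and 0.00954 for Trim59). The block also added Trim30a at 1 h (adjusted p = 0.00575), Trim39 at 2 h (0.0413), Trim30d at 2 h (0.0182), Trim44 at 2 h (0.00371) and Trim59 over the course (0.0327).

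By domain group, IL-4 was called for 2 of 10 genes of the chromosome 7 cluster (Trim30a and Trim30c, both falls), 7 of 13 other SPRY genes (Trim26 as a rise, and Trim15, Trim25, Trim35, Trim39, Trim47 and Trim65 as falls), all 3 TIF1 genes, Trim36, Trim13, Trim14, Trim16 and Trim8. Trim25, Trim36, Trim8 and Trim30c kept the F test call without any 1 replicate number. Trim11 had a small rise of 0.31 ± 0.09 (adjusted p = 0.038) at 0.5 h, lost without replicate 2 (adjusted p = 0.464), replicate 3 (0.134), untreated replicate 1 (0.0735) or untreated replicate 2 (0.158).

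LPS and IL-4 samples of the same time were then compared directly, in a fit of all 27 samples. At 0.5 h, 2 TRIM genes were higher after LPS than after IL-4 (18% of all genes) and 17 lower (35.8%). By 1 h, 12 were higher (24%) and 17 lower (40.5%). By 2 h, 17 were higher (26.4%) and 16 lower (42.3%), and by 4 h, 17 were higher (26.1%) and 16 lower (41.9%). Median-of-ratios scaling gave 4 higher against 12 lower genes at 0.5 h and 14 against 13 at 1 h. Equal totals gave 8 against 23 at 1 h, where the median difference of all tested genes was -0.78. The shares of all genes were not counted under either scaling.

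The largest differences at 4 h were those of the chromosome 7 genes and Trim25. LPS exceeded IL-4 by 6.29 ± 0.17 (adjusted p = 2.94e-19) for Trim30c, 4.61 ± 0.25 (adjusted p = 6.18e-14) for Trim30d, 4.31 ± 0.23 (adjusted p = 3.57e-14) for Trim21, 4.08 ± 0.17 (adjusted p = 8.25e-16) for Trim30a and 3.85 ± 0.14 (adjusted p = 3.79e-17) for Trim25. Trim30b, at or below the floor after IL-4, was at least 34.6-fold higher after LPS. Trim36 differed from the earliest time on, by 2.81 ± 0.16 (adjusted p = 4.39e-13) at 0.5 h and 4.22 ± 0.16 (adjusted p = 1.83e-16) at 1 h. Trim37 was lower after LPS by -3.24 ± 0.26 (adjusted p = 1.05e-10), and Trim24 by -2.27 ± 0.15 (adjusted p = 2.01e-12). Trim8 and Trim25 at 0.5 h, by contrast, were below untreated after both stimuli, and the difference between stimuli was -0.20 ± 0.17 (adjusted p = 0.345) for Trim8 and 0.03 ± 0.14 (adjusted p = 0.878) for Trim25. With equal totals both were lower after LPS, by -0.58 (adjusted p = 0.00511) for Trim8 and -0.35 (adjusted p = 0.0256) for Trim25.

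Calls gained with the replicate block were those of Trim59 at all 4 times (adjusted p = 1.15e-05 at 1 h, where it was lower after LPS), Trim26 at 0.5 h (0.0217) and Trim30d at 1 h (0.0108). Trim59 was also called at all 4 times without replicate 1 (adjusted p = 1.7e-05 at 4 h), and Trim26 (0.0215) and Trim30d (0.0244) with median-of-ratios scaling. The call of Trim15 at 1 h was lost with the block.

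**Figure D5:**
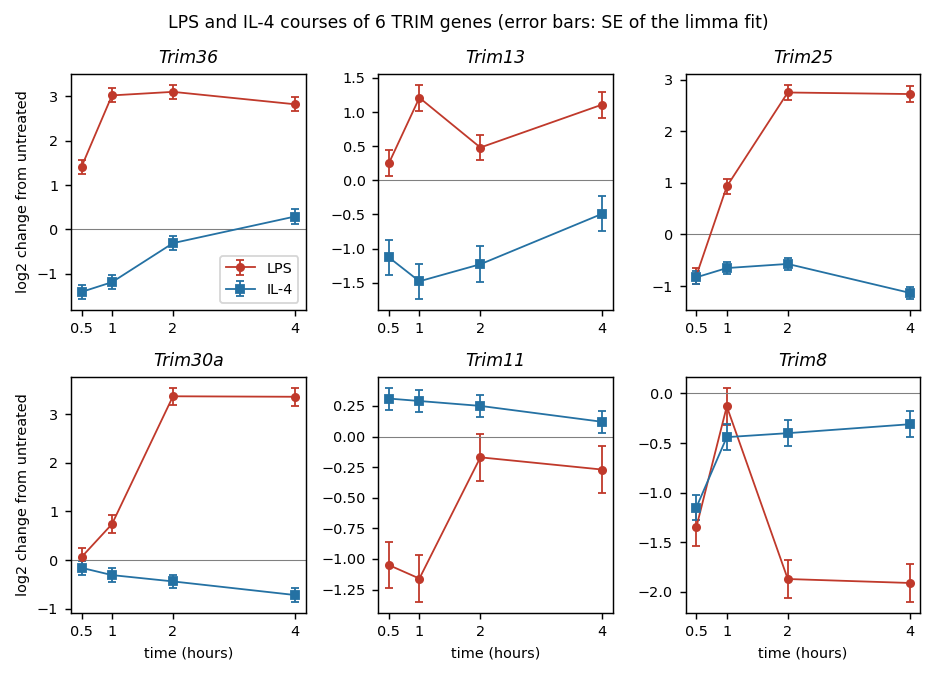
Log2 change from untreated (y axis, error bars for the SE of the limma fit, n = 3 per group) against time in hours (x axis) after LPS (red circles) and IL-4 (blue squares) for 6 TRIM genes. Trim36 and Trim13 lie above 0 after LPS and below it after IL-4 at 0.5 to 2 h. Trim13 was not called at LPS 0.5 h (limma, adjusted p = 0.294), and with equal totals its LPS changes at 0.5 h and 2 h turned sign. Trim36 was not called at IL-4 2 h. Trim25 and Trim8, by contrast, are below untreated after both stimuli at 0.5 h, where with equal totals both lie lower after LPS.

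Levels per gene length gave the order of the genes. On the scale of mean normalised counts per kb of gene span, the highest untreated levels were those of Trim25 (15.9 ± 1.29, SD, n = 3), Trim8 (13.2 ± 0.384), Trim11 (11.0 ± 0.937), Trim65 (9.66 ± 0.562) and Trim30a (9.64 ± 0.651). The last 2 did not differ beyond their spread. At LPS 4 h the order was Trim25 (105 ± 1.57), Trim30a (99.2 ± 10.1), Trim30d (81.7 ± 4.12), Trim30c (79.5 ± 7.30) and Trim21 (61.0 ± 2.35). Trim25 and Trim30a lay within their spread there, as did Trim30d and Trim30c.

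Genes around the family moved with LPS as well. Of 3 tested TRIM proteins with other names (Pml, Mid1 and Mefv), all 3 rose over the LPS course, and after IL-4 Mid1 and Mefv rose as well, with largest changes of 2.74 and 1.76, while Pml fell. Pml read 174, 219 and 273 untreated and 154, 119 and 166 (0.5 h), 154, 80 and 81 (1 h), 1748, 2009 and 2044 (2 h), 1972, 2268 and 2383 (4 h) after LPS, and like Trim25 it was below untreated at 0.5 h, at -0.59 ± 0.22 (adjusted p = 0.0374), before a rise of 3.33 ± 0.22 (adjusted p = 3.44e-09) at 4 h. Of 23 tested partners in RNA, DNA and Toll-like receptor sensing, 17 rose and 6 fell (Ikbkg, Mavs, Sting1, Tab1, Tab3 and Ube2w), against 32.9% and 54.7% of all genes. Ddx58, which encodes the RIG-I sensor that TRIM25 acts on, read 128, 154 and 156 untreated and 1950, 2291 and 2213 at LPS 4 h, a rise of 3.87 ± 0.15 (adjusted p = 4.6e-12).

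All 9 genes of the interferon axis rose over the LPS course, against 32.9% of all genes. Ifnb1 reached 10 only in LPS samples and so passed the filter through the group in which it was higher. Its place in that count is a description. Ifnb1, which encodes interferon-beta, read 0 in all untreated and all IL-4 samples and 10, 2 and 3 (0.5 h), 17, 16 and 5 (1 h), 2, 1 and 0 (2 h), 0, 0 and 0 (4 h) after LPS, so its reads lay at 0.5 to 2 h, with at least 4.22-fold more at 1 h than the floor of 3 counts. Over the IL-4 course 4 genes of this axis rose and 1 fell, and 7 sensing partners rose, 7 fell and 9 were not called, against 19.4% of all genes that rose and 20.9% that fell.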

How the data were processed

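Chromatin-associated RNA of 27 samples (9 groups of 3) was sequenced by the authors after SMART-seq2 library preparation with random primers, on single-end NextSeq500 runs. According to the study's methods, the authors aligned reads with TopHat2 2.1.1 to mm10, removed multiply mapped and blacklisted reads (Bedtools 2.29.2), counted reads per gene of GRCm38.p6, and scaled the counts on invariant genes. The deposited values are the score that the authors made by rounding these normalised counts to whole numbers, so no count model was fitted and the sequencing depth of each library is unknown. The strand setting of the counting is not given in the sources used here.

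Genes with a value of at least 10 in at least 3 samples were kept (13901), and log2 of the value plus 1 was tested with limma 3.58.1 (R 4.3.3, trend, Benjamini-Hochberg over all 13901 genes, threshold 0.05). Each course used its 15 samples, and LPS minus IL-4 used all 27. Folds against a group at or below 3 are bounds set by that floor. The script was tested on simulated data. Low-level genes limit the precision: 23 of the 40 TRIM genes reached 10 in all samples. Values per kb used the annotated gene span.

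The TRIM genes and the gene lists (domain groups, sensing partners, interferon axis, cell markers) were chosen with earlier results of these data known. Each tested TRIM gene was named once, with values by sample for Trim21, Trim25, Trim30a, Trim24, Trim28, Trim33 and for the 10 largest rises and 6 largest falls after LPS and the 4 largest of each after IL-4 (mean of at least 50 in the higher group, no overlap with untreated, of which 1 IL-4 rise qualified), plus other genes that a sentence turned on. Same-numbered replicates deviated together: over 6827 genes the correlation of their deviations from the group means exceeded 0.1 in all 36 pairs of groups for each number (0.425 to 0.851, 0.163 to 0.529 and 0.279 to 0.681), so the numbers pair the samples although the labels do not say what a number shares. The alternatives were pseudocount 8, no filter, a mean of at least 50, median-of-ratios and equal-total scaling, the replicate block, each replicate number or untreated library left out, and replicates 2 and 3 averaged.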

Additional observations from a re-analysis of the deposited data

Results flagged for a closer look

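TRIM genes are listed here if they were called in opposite directions after the 2 stimuli and the difference passed limma's test. The differences and their p-values are therefore no separate support. At 0.5 h and 1 h the LPS minus IL-4 difference was 2.81 ± 0.16 (adjusted p = 4.39e-13) and 4.22 ± 0.16 (adjusted p = 1.83e-16) for Trim36, and -1.35 ± 0.15 (adjusted p = 7.8e-08) and -1.44 ± 0.15 (adjusted p = 1.59e-08) for Trim11. For Trim13 it was 2.69 ± 0.23 (adjusted p = 4.06e-10) at 1 h and 1.71 ± 0.23 (adjusted p = 5.09e-07) at 2 h. For Trim25 it was 1.58 ± 0.14 (adjusted p = 8.14e-10), 3.32 ± 0.14 (adjusted p = 7.22e-16) and 3.85 ± 0.14 (adjusted p = 3.79e-17) at 1, 2 and 4 h. For Trim30a it was 3.81 ± 0.17 (adjusted p = 3.4e-15) at 2 h and 4.08 ± 0.17 (adjusted p = 8.25e-16) at 4 h, and for Trim30c 6.29 ± 0.17 (adjusted p = 2.94e-19) at 4 h. Several of the paired calls against untreated were lost in limma fits without 1 replicate number. Among them were Trim11 at IL-4 1 h (adjusted p = 0.123, 0.399 and 0.0707 without replicate 1, 2 and 3) and Trim13 at LPS 2 h (0.125, 0.0694 and 0.271). The call of Trim30a at IL-4 2 h was lost without replicate 2 (0.0898) or 3 (0.236).

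Other TRIM genes were called below untreated at LPS 0.5 h and above it at 4 h. The 4 h minus 0.5 h difference was 6.03 ± 0.14 (adjusted p = 2.43e-13) for Trim30c, 5.34 ± 0.25 (adjusted p = 4.92e-11) for Trim21, 3.52 ± 0.15 (adjusted p = 2.12e-11) for Trim25, 3.15 ± 0.13 (adjusted p = 1.28e-11) for Trim14, 2.99 ± 0.14 (adjusted p = 4.28e-11) for Trim34a, 2.95 ± 0.16 (adjusted p = 2.76e-10) for Trim12c and 2.29 ± 0.11 (adjusted p = 1.25e-10) for Trim12a. In each of these 7 genes all 3 replicates at 4 h were above all 3 at 0.5 h. The 7 were picked by these calls, so neither this order nor the p-values add support.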

How the results depend on the processing

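Of 190 counts of called TRIM genes recomputed under the alternatives, 153 lay within 1.5 times the count reported. Among values of single TRIM genes at single times, 3518 kept their direction and side of the threshold, 239 lost the call, 107 gained it, 135 were uncalled in both settings and changed sign, and 5 turned with a call in at least 1 of the 2, all 5 with equal totals and LPS (Trim30a at 0.5 h to -0.45, Trim3 at 2 h to -0.26 and at 4 h to -0.55, Trim13 at 2 h to -0.16 and Trim35 at 2 h to -0.3). A mean of at least 50 left 22 TRIM genes to test for LPS and LPS against IL-4 and 19 for IL-4. The counts then were 22 over the LPS course, 15, 16, 21 and 19 at LPS 0.5, 1, 2 and 4 h, 19 between LPS 4 h and 0.5 h, 11 over the IL-4 course, 4 and 5 at IL-4 0.5 h and 1 h, and 17, 21 and 21 for LPS against IL-4 at 1, 2 and 4 h. Without a filter IL-4 1 h and 2 h gave 5 each. With equal totals IL-4 4 h against 0.5 h gave 15. With the replicate block IL-4 4 h gave 14 and IL-4 4 h against 0.5 h gave 12, and no other call changed than those of Trim8, Trim15, Trim23, Trim24, Trim25, Trim26, Trim30a, Trim30d, Trim34a, Trim35, Trim37, Trim39, Trim44, Trim45, Trim59 and Trim62. Trim23 and Trim62 gained the LPS 4 h against 0.5 h call (adjusted p = 0.0219 and 0.032). With replicates 2 and 3 averaged the IL-4 counts were 6 over the course, 4, 4 and 5 at 1, 2 and 4 h, and 4 for 4 h against 0.5 h. The cause was not tested.

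Leaving out 1 replicate number or untreated library gave 33 to 39 over the LPS course, 18 to 26, 22 to 28, 25 to 35 and 25 to 35 at its 4 times, and 25 to 31 for LPS 4 h against 0.5 h. IL-4 ranged from 4 to 20 over the course, 3 to 12, 2 to 9, 0 to 12 and 2 to 15 at its 4 times, and 4 to 12 for 4 h against 0.5 h. The 0 at IL-4 2 h came without replicate 3 (limma, 8 at an unadjusted p under 0.05), and without untreated replicate 2 IL-4 1 h gave 4. LPS against IL-4 ranged from 14 to 17, 24 to 27, 30 to 33 and 28 to 33. Low values limit Trim2, Trim15, Trim30b, Trim43c, Trim45, Trim47 and Trim68 most.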
